A study of Populus trichocarpa with 15 samples.

Results

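Open chromatin on unplaced scaffolds was examined in leaves of *Populus trichocarpa*. The scaffold peaks are all peaks whose sequence name begins with scaffold_ in the lists of 14 libraries, taken as single peaks per library and as regions formed by merging overlapping or touching peaks over the libraries. There were 749 single peaks of 385491 in all, and 96 merged regions of 55335. Peaks lay on 3 scaffolds only: 678 peaks in 91 regions on scaffold_120, 62 peaks in 4 regions on scaffold_3526, and 9 peaks in 1 region on scaffold_2190. For comparison, the 19 assembled chromosomes, Chr01 to Chr19, held 384314 peaks in 55198 regions, and the chloroplast sequence held 428 peaks in 41 regions.

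The trees grew wild in Oregon and their leaves were frozen directly after they were cut. Trees 13 and 14 are the stems of 1 individual that share a trunk base, tree 4 is a separate individual, and the labels name no treatment. There were 5 libraries of tree 13, 5 of tree 14 and 4 of tree 4, each from a different branch, so each tree is 1 stem or individual and the p-values describe branches of these trees and not stems or trees in general. A library titled 1.1 was left out, because its title and its peak names give different trees.

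ATAC-seq uses a transposase that inserts sequencing adapters where DNA is not wrapped tightly in nucleosomes, so that open regions, often promoters and other regulatory DNA, gather more reads. A peak is a stretch where a caller found more reads than it expected from the background. Unplaced scaffolds are assembled stretches of DNA that could not be assigned a position on a chromosome, often because they are repeated or differ between the copies of the genome.

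The lists held 12801 to 39694 peaks per library. They give positions, a score and −log10 p- and q-values, where a q-value is a p-value adjusted for the number of tests, and no read counts, so the depth is unknown. Where a list has no peak the caller found none past its threshold, and such DNA may still be open. Positions are given as the lists have them. The sources used here give no genome build for these lists, no gene annotation was used and the full lengths of the scaffolds are not known here, so all distances are between the outermost regions.

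Every library had scaffold peaks, and nearly all of them were on scaffold_120. In tree 13, branches 13.1 to 13.5 had 37, 61, 61, 50 and 22 peaks on scaffold_120. Branches 14.1 to 14.5 of tree 14 had 56, 67, 48, 56 and 45. Branches 4.2 to 4.5 of tree 4 had 28, 36, 58 and 53. The 3 trees overlapped, with the lowest value in 13.5, whose list was the shortest, and the highest in 14.2. The length covered by peaks on scaffold_120 was 8966 to 15700 bp in tree 13, 13176 to 16646 bp in tree 14 and 10437 to 16941 bp in tree 4. All scaffolds together made up 0.198 ± 0.0436% of the peaks of a list (SD, n = 14), from 0.132% in 4.2 to 0.273% in 14.2.

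**Figure D1:**
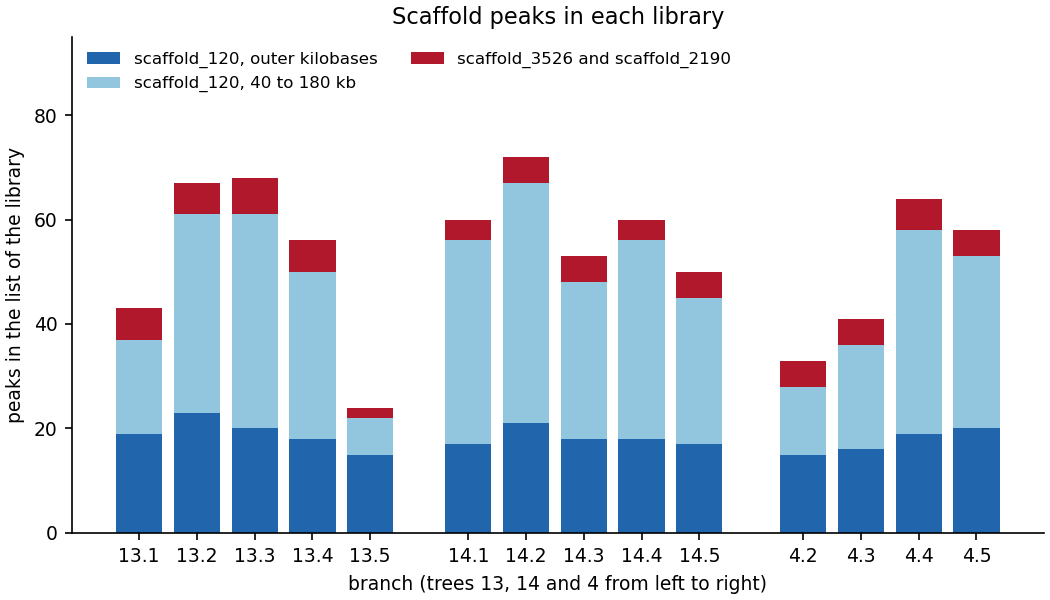
Number of scaffold peaks (vertical axis) in each library (horizontal axis, trees 13, 14 and 4 from left to right), stacked as the outer stretches of scaffold_120, its stretch from 40 to 180 kb, and the other scaffolds. The outer peaks numbered 15 to 23 in every library, while those at 40 to 180 kb numbered 7 to 46.

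On scaffold_3526 the libraries had 5, 5, 6, 5 and 2 peaks in tree 13, 4, 5, 4, 4 and 4 in tree 14, and 4, 5, 5 and 4 in tree 4. The peak on scaffold_2190 was found in branches 13.1 to 13.4, in 14.3 and 14.5, and in 4.2, 4.4 and 4.5. Counts on scaffold_3526 thus ran from 4 to 6 outside 13.5, and the trees overlapped.

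The regions on scaffold_120 were spread over 179177 bp, from 25315 to 204492. They lay close together. There were 50.8 regions per 100 kb of this span, against 9.05 to 19.2 on the 19 chromosomes (median 13.6), and 16.3% of the span was covered by regions, against 2.52 to 5.75% on the chromosomes. The median gap between neighbouring regions was 1087 bp on scaffold_120, against 2718 to 4246 bp on the chromosomes, and the gaps ran up to 12102 bp. Close spacing was not particular to scaffold_120. The chloroplast sequence had 31.7 regions per 100 kb of span, 15.6% of the span covered and a median gap of 1421.5 bp. Scaffold_3526 had 109.8 regions per 100 kb and 69.3% covered, over a span of only 3643 bp. The chromosome spans include long stretches without peaks, so windows of the same 179177 bp were laid end to end along the chromosomes. Of 2172 such windows, 2 held as many as 91 regions, with a median of 25 and a maximum of 94. The 20 regions of scaffold_120 that were called in all 14 libraries were matched or exceeded in 1 window (median 4, maximum 21). The 29230 bp covered were reached in 0 windows (median 7496, maximum 27922). The span of scaffold_120 begins and ends on a region and the windows do not, so these are descriptions without a test.

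The density was also compared within each library, where scaffold and chromosome peaks come from the same list and threshold. Whether reads were equally deep on both is unknown, as the lists give no counts. Branches of tree 13 had 20.7, 34.0, 34.0, 27.9 and 12.3 peaks per 100 kb on scaffold_120, against 7.18, 9.57, 6.45, 6.09 and 3.26 on the chromosomes. Branches of tree 14 had 31.3, 37.4, 26.8, 31.3 and 25.1, against 8.18, 6.72, 10.1, 7.93 and 5.41. Branches of tree 4 had 15.6, 20.1, 32.4 and 29.6, against 6.40, 5.06, 8.12 and 7.82. Scaffold_120 was denser in 14 of 14 libraries and the values of the 2 sequence classes did not overlap. The means were 27.0 ± 7.43 on scaffold_120 and 7.02 ± 1.81 on the chromosomes (SD, n = 14), a difference of 20.005 peaks per 100 kb (SD 6.52; two-sided exact sign-flip permutation test over 16384 arrangements, p = 0.00012207, the smallest it allows). Within libraries the ratio ran from 2.44 to 5.57. This comparison was added after the values had been seen. The difference was smaller among stronger peaks. Among the most significant 50% of peaks the means were 5.30 on scaffold_120 and 3.51 on the chromosomes, at a −log10 q of at least 5 they were 5.98 and 3.83, and at 10 or more they were 2.55 and 1.15. The ratio of the means was 1.51, 1.56 and 2.23 in these sets, against 3.85 over all peaks, and scaffold_120 was denser in 13 of 14 libraries in each of the 3 sets. All libraries call the same scaffold, so the p-value describes these libraries and not scaffolds in general.

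**Figure D2:**
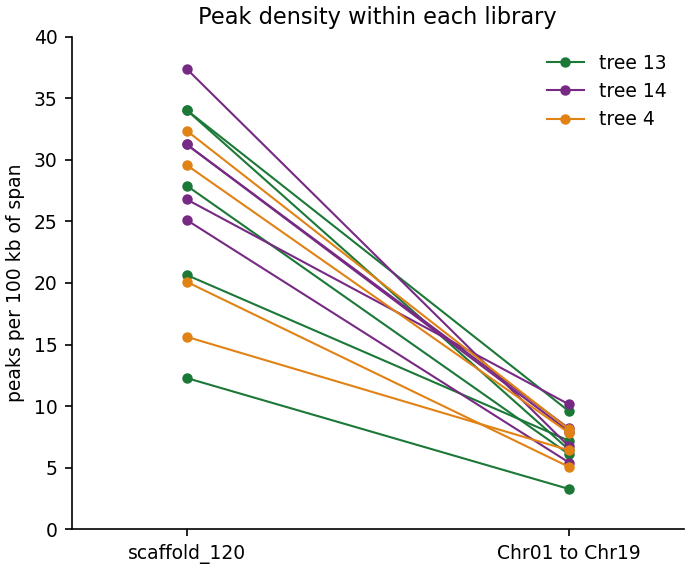
Peaks per 100 kb of span (vertical axis) on scaffold_120 and on Chr01 to Chr19 (horizontal axis), with a line for each of the 14 libraries and a colour for each tree. Every line is higher on scaffold_120, where values run from 12.3 to 37.4, against 3.26 to 10.1 on the chromosomes.

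Peaks were uneven in strength along scaffold_120. In bins of 20 kb, the 85 peaks at 20 to 40 kb had a median −log10 q of 5.29, and 5 of the 7 regions there were called in all 14 libraries. The 157 peaks at 180 to 200 kb had a median of 4.98, and 7 of the 14 regions there were called in all 14 libraries. The peaks of the single region beyond 200 kb had a median of 24.3. In the 7 bins between, from 40 to 180 kb, the median of the peaks was between 2.96 and 3.41, and no peak of those 422 passed 5.44. The split at 40 and 180 kb was chosen after these values had been seen and is a description. The 69 inner regions included 7 called in all 14 libraries and 20 called in only 1, whereas the 22 outer regions included 13 called in all 14 and 3 called in only 1.

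The inner peaks also carried most of the spread between branches. They numbered 18, 38, 41, 32 and 7 in tree 13, 39, 46, 30, 38 and 28 in tree 14, and 13, 20, 39 and 33 in tree 4. The outer peaks numbered 19, 23, 20, 18 and 15 in tree 13, 17, 21, 18, 18 and 17 in tree 14, and 15, 16, 19 and 20 in tree 4. The highest library had 6.57 times the lowest for inner peaks and 1.53 times the lowest for outer peaks. Branches 13.5 and 4.2 were lowest for the inner peaks and, with equal counts, lowest for the outer ones.

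**Figure D3:**
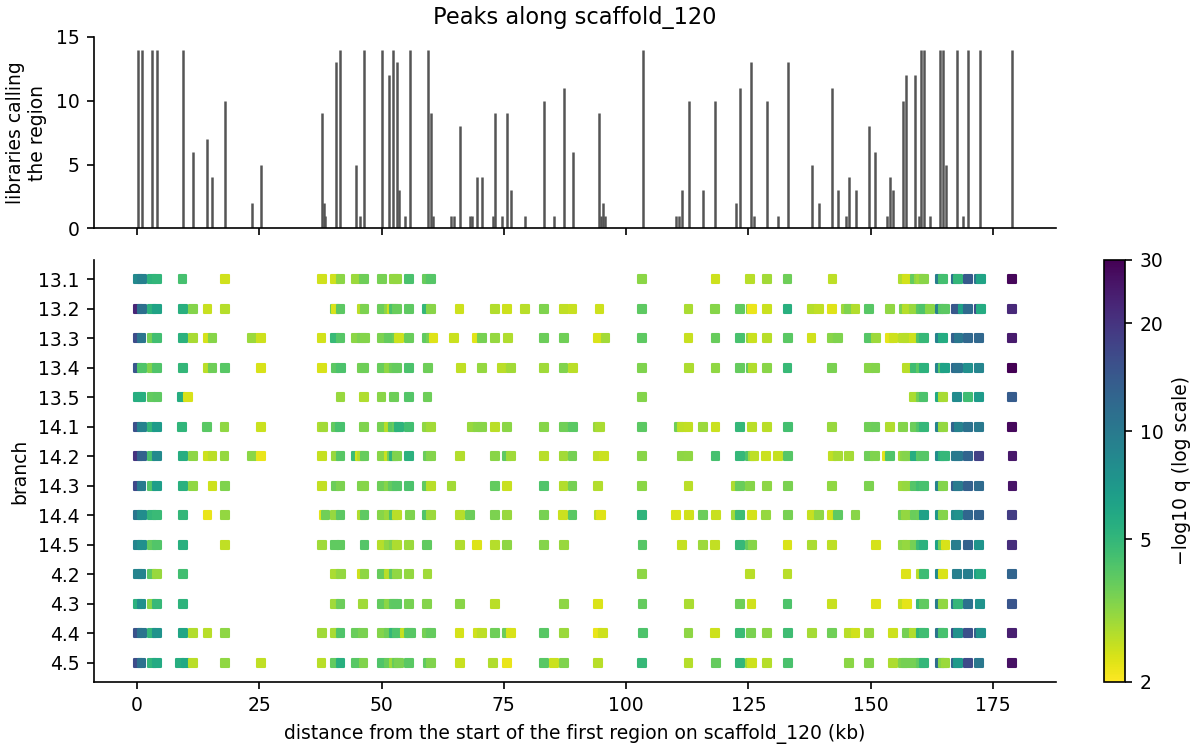
Peaks along scaffold_120 by distance from its first region in kb (horizontal axis). Above, how many libraries called each of 91 regions (vertical axis). Below, every peak of each branch (vertical axis, trees 13, 14 and 4 from top to bottom), coloured by −log10 q on a log scale. The last region is dark in every branch, with values from 12.48 to 29.81, and the first runs from 5.34 to 22.76, with 13.5 and 4.3 the palest. The stretch at 40 to 180 kb of the scaffold holds peaks of at most 5.44.

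The region with the highest score on scaffold_120 was its last, 203870 to 204492. Its −log10 q was 28.56, 21.87, 24.80, 29.81 and 13.84 in tree 13, 28.18, 25.24, 26.14, 18.48 and 20.94 in tree 14, and 12.48, 14.72, 23.81 and 26.51 in tree 4. The trees overlapped. The mean was 22.5 ± 5.69 (SD, n = 14), and on average the region stood at percentile 97.9 of the scores in a list. The first region, 25315 to 25557, ranged from 5.56 to 22.76 in tree 13, from 8.79 to 20.15 in tree 14 and from 5.34 to 16.19 in tree 4 (mean 13.2 ± 5.35, n = 14).

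A further 3 of the strongest shared regions lay within 12 kb of the last. The region at 192490 to 193342 averaged 11.5 ± 2.30, the one at 195151 to 195376 averaged 11.8 ± 2.999, and the one at 197398 to 198003 averaged 10.8 ± 3.39 (SD, n = 14 each). Their mean percentiles lay between 83.1 and 87.4. With a −log10 q of at least 10, the last region was the only one on scaffold_120 that was still called in all 14 libraries.

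The region at 33462 to 35875 was the widest of all 55335 regions, at 2413 bp, where the widest chromosome region had 2410 bp. Its widest single peak measured 2232, 2098, 2202, 2144 and 1885 bp in tree 13, 1713, 2194, 2333, 1896 and 2024 bp in tree 14, and 2196, 2007, 2194 and 1012 bp in tree 4. In 12 of the 14 lists this was the widest peak of the whole list. The exceptions were 13.5, where it ranked 3, and 4.5, where it ranked 33, and in both of these lists the region was divided over 2 peaks. Its scores were moderate despite its width. The −log10 q was 4.44, 5.42, 5.32, 4.97 and 5.61 in tree 13, 5.12, 5.57, 5.38, 4.99 and 5.44 in tree 14, and 4.54, 5.23, 6.08 and 5.89 in tree 4, at a mean percentile of 49.4.

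Other wide regions lay in the weak inner stretch. The region at 71153 to 72084 was 931 bp wide and averaged a −log10 q of 3.45 ± 0.36, and the one at 128317 to 129200 was 883 bp wide and averaged 3.83 ± 0.63 (SD, n = 14 each). Both were called in all 14 libraries. With a −log10 q of at least 5 they were called in 0 and 1 libraries.

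At the other end of the range, 23 regions of scaffold_120 were called in a single library: 9 in tree 13, 11 in tree 14 and 3 in tree 4. They were narrow, with a median of 116 bp, against 121 bp for single-library regions of the chromosomes. The regions called in all 14 libraries had a median of 514 bp on scaffold_120 and 483 bp on the chromosomes. The strongest single-library region, 194059 to 194158, had a −log10 q of 6.40 in 13.2 and lay between strong shared regions. The next by percentile, 136133 to 136252, had 3.65 in 14.1.

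In how widely they were shared, the regions of scaffold_120 were close to the chromosomes in each class. Of the 91 regions, 20 (22.0%) were called in all 14 libraries, against 17.6% on the chromosomes. Another 23 (25.3%) were called in 1 library, against 24.0%, and 48 (52.7%) in 2 to 13, against 58.4%. All 3 trees called 56 regions (61.5%, against 58.1% on the chromosomes). Only tree 13 called 9 (9.89%, against 8.40%), only tree 14 called 15 (16.5%, against 13.6%) and only tree 4 called 3 (3.30%, against 5.27%). Tree 4 has 1 library fewer than the others, and these shares were not tested.

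The 4 regions of scaffold_3526 lay within 3643 bp, from 27720 to 31363, with gaps of 162 to 601 bp. The first, 27720 to 29053, was 1333 bp wide and was called in all 14 libraries, as 26 peaks with up to 3 in a library. Its −log10 q, taken from the strongest peak of each library, was 10.61, 16.47, 14.71, 8.93 and 6.59 in tree 13, 11.04, 13.34, 11.04, 10.10 and 11.32 in tree 14, and 13.75, 13.12, 9.71 and 10.25 in tree 4. The trees overlapped, and the mean was 11.5 ± 2.55 (SD, n = 14). The region at 30911 to 31363 was also called in all 14 libraries and averaged 5.42 ± 1.77. The region at 29409 to 29838 was called in 13 libraries, all but 13.5, and averaged 6.25 ± 1.86. The region at 30000 to 30310 was called in 4 libraries of tree 13, 3 of tree 14 and 2 of tree 4, and averaged 3.65 ± 0.98 where it was called.

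The region of scaffold_2190, 59859 to 60506, was 647 bp wide. Its −log10 q was 6.09, 6.47, 3.13 and 4.82 in branches 13.1 to 13.4, 4.64 and 2.87 in 14.3 and 14.5, and 4.48, 5.77 and 4.91 in 4.2, 4.4 and 4.5. It was called in 4 of 5 libraries of tree 13, 2 of 5 of tree 14 and 3 of 4 of tree 4 (two-sided Fisher's exact test, p = 0.524 for tree 13 against tree 14, adjusted p = 1).

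Scaffold peaks were next set against the chromosome peaks of the same list in width, score and sharing, by two-sided exact sign-flip permutation tests over the 14 libraries, with Benjamini-Hochberg adjustment over these 6 tests. The scaffolds other than scaffold_120 had 2 to 7 peaks per library, so their medians rest on few peaks. The libraries drew on the same merged regions, 5 on the other scaffolds and 91 on scaffold_120. The p-values of these tests therefore describe these libraries and not loci in general. Scaffold_120 also had few under the filters. It kept 4 to 17 peaks per library among the most significant 50% and 8 to 22 with lists of equal length. At a −log10 q of at least 5 it kept 7 to 15, and at 10 or more 1 to 7.

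Over all peaks of a list, the clearest difference was in score. The median peak of scaffold_120 stood at percentile 23.0, 14.9, 17.1, 19.3 and 20.2 of its list in tree 13, 19.1, 21.5, 20.9, 15.2 and 20.6 in tree 14, and 14.2, 23.0, 18.3 and 27.3 in tree 4. The chromosome peaks make up nearly all of a list, so their median lies near 50 by construction, here at 49.99 to 50.06. Scaffold_120 was lower in 14 of 14. The mean was 19.6 ± 3.60 on scaffold_120 and 50.04 on the chromosomes, a difference of −30.4 points (exact permutation p = 0.00012207, the smallest the test allows, adjusted p = 0.000732). The direction depended on which peaks were kept. With percentiles among the most significant 50% of each list, scaffold_120 was 14.2 points above the chromosomes (exact permutation, adjusted p = 0.00513), and with lists of equal length it was 10.6 points above them (adjusted p = 0.0309 by the same exact permutation). At a −log10 q of at least 5 it was 10.1 points above them, which did not pass (exact permutation, adjusted p = 0.0566), and at 10 or more the difference was −0.481 points (exact permutation, adjusted p = 0.898). The inner peaks had a median percentile of 13.6 and the outer peaks 49.6. On the other scaffolds the median percentile was 51.6 ± 11.1, against 50.04 on the chromosomes, a difference of 1.53 points (exact permutation, adjusted p = 0.608). With lists of equal length the difference was −10.1 points and passed (exact permutation, adjusted p = 0.00146).

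The median width on scaffold_120 was 165 to 319 bp over the libraries, against 180 to 285 bp on the chromosomes. It was higher in 7 libraries and lower in 7. The means were 221 ± 42.5 bp and 218 ± 27.8 bp, a difference of 2.89 bp (SD 20.7, n = 14, exact permutation p = 0.608, adjusted p = 0.608). With the mean width of each library in place of the median, the value for scaffold_120 was 40.8 bp above that of the chromosomes (exact permutation, adjusted p = 0.000366). Each of these means includes the region at 33462 to 35875, whose widest peak measured 1012 to 2333 bp, among 22 to 67 scaffold_120 peaks per library. The difference in means without this region was not computed, so it is not read as a trait of scaffold_120 peaks in general. With lists of equal length the median was lower on scaffold_120 (difference −53.0 bp), and this also passed (exact permutation, adjusted p = 0.0181). In the most significant 50% and at a −log10 q of at least 5 or 10 the differences in the median were −32.8, −18.4 and −72.0 bp and did not pass (exact permutation, adjusted p = 0.163, 0.305 and 0.186). The peaks of the other scaffolds were in the median 296 ± 101 bp wide, against 218 ± 27.8 bp on the chromosomes. They were wider in 12 of 14 libraries, by 77.8 bp on average (exact permutation p = 0.00464, adjusted p = 0.00928), a call that was lost at a −log10 q of at least 5 or 10 (adjusted p = 0.0566 and 0.201).

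A peak of scaffold_120 was called in a mean of 10.1 ± 1.38 other libraries and a chromosome peak in 9.82 ± 1.17 (SD, n = 14). The difference was 0.279 libraries, with scaffold_120 higher in 8 lists and lower in 6 (exact permutation p = 0.372, adjusted p = 0.559). Under the alternative settings this difference ran from −0.0858 to 1.06 libraries, highest among the most significant 50% of peaks. None of these passed (exact permutation, lowest adjusted p = 0.0566). A peak of the other scaffolds was called in 11.2 ± 0.9996 other libraries, 1.399 more than a chromosome peak, and more in 11 of 14 (exact permutation p = 0.000977, adjusted p = 0.00293). That call was lost under each of the 5 filters on score, list length or width, where the difference was 0.413 to 0.912 libraries.

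**Figure D4:**
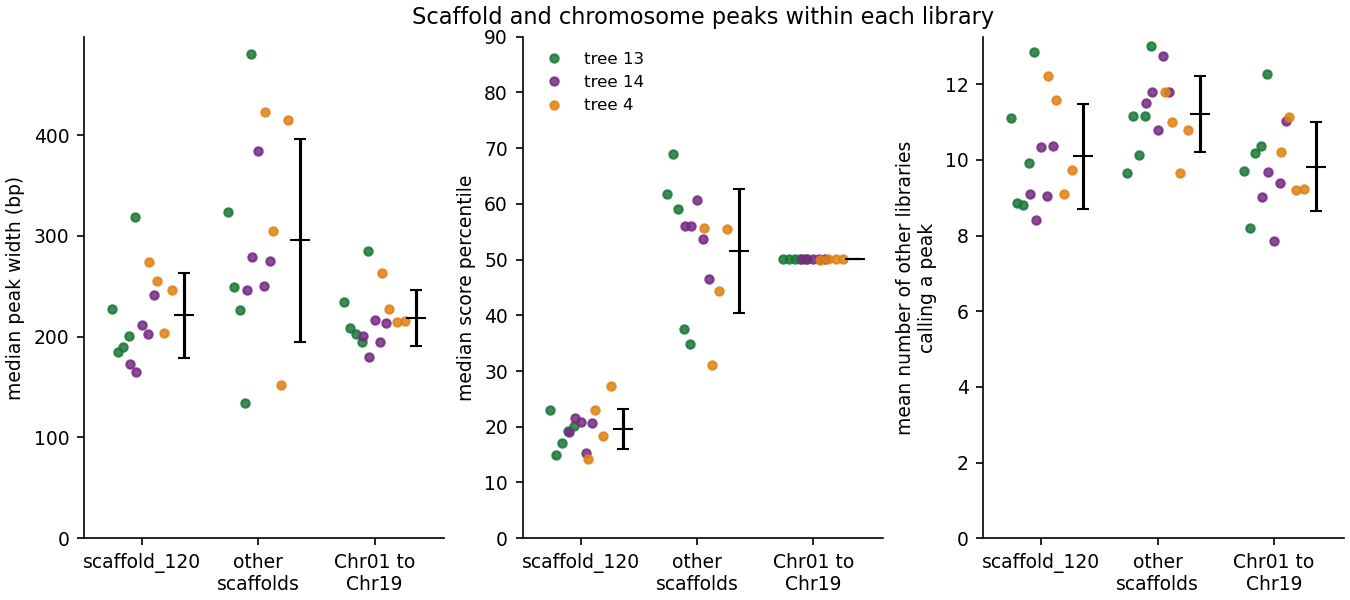
Median peak width in bp, median score percentile and mean number of other libraries calling a peak (vertical axes) for scaffold_120, the other scaffolds and Chr01 to Chr19. Points are the 14 libraries, coloured by tree, and black bars are the mean ± SD. In the middle panel scaffold_120 lies between 14.2 and 27.3 in every library, below the chromosomes at 49.99 to 50.06.

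The design compares the 2 stems of a single individual, and this individual with another tree. The share of a list on scaffold_120 was 0.131, 0.163, 0.241, 0.209 and 0.172% in tree 13, 0.175, 0.254, 0.121, 0.180 and 0.212% in tree 14, and 0.112, 0.181, 0.182 and 0.173% in tree 4. The ranges overlapped. Tree 13 averaged 0.183 ± 0.0426% and tree 14 averaged 0.188 ± 0.0492% (SD, n = 5 each, p = 0.825 by a two-sided exact permutation over 252 arrangements, or 0.825 adjusted over 8 tests). Trees 13 and 14 together averaged 0.186 ± 0.0435% (n = 10) and tree 4 averaged 0.162 ± 0.0339% (n = 4), a difference of 0.0237 points that did not pass (exact permutation over 1001 arrangements, p = 0.353, adjusted p = 0.755).

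On the other scaffolds the share was 0.0211 ± 0.00537% in tree 13 and 0.0161 ± 0.00499% in tree 14 (n = 5 each, exact permutation p = 0.143, adjusted p = 0.755). It was 0.0186 ± 0.00556% in trees 13 and 14 (n = 10) and 0.0201 ± 0.00374% in tree 4 (n = 4, exact permutation p = 0.631, adjusted p = 0.825). The 4 matching tests on shares of covered length gave exact permutation p-values between 0.222 and 0.794, with adjusted p of at least 0.755. None of the 8 differences passed the threshold of 0.05.

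Single regions were then tested for calls in one tree and not the other, by two-sided Fisher's exact tests over all regions that could reach p = 0.05. Between tree 13 and tree 14, 13 of the 96 scaffold regions could be tested and 0 had an unadjusted p under 0.05, where 3.04% of the 9042 testable regions of all sequences did. Between trees 13 and 14 and tree 4, 37 scaffold regions could be tested and 0 had an unadjusted p under 0.05, where 0.994% of 18615 did. No scaffold region was called in all libraries of one side and in none of the other, which held for 0.144% of the testable regions of all sequences in the first comparison and 0.0161% in the second. After adjustment 0 regions passed on any sequence. At these shares a count of 0 among 13 or 37 regions is not set apart from the background.

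The count of 0 changed when some single libraries were left out. Leaving out a library of a compared group also changes which p-values the test can reach. These counts therefore cannot show that the result rests on particular libraries. For tree 13 against tree 14 it became 2 without 13.2, 2 without 13.3, 1 without 14.2, 2 without 14.3 and 1 without 14.4. For trees 13 and 14 against tree 4 it became 1 without 4.4 and 1 without 4.5. These are unadjusted counts. The counts over all sequences moved too. For tree 13 against tree 14 they were 275 with all libraries, 1092 without 13.2 and 478 without 13.3. Without branch 1 of tree 13 the count over all sequences was 621, while the scaffold count stayed at 0. With each library left out in turn they ran from 274 to 1092. Against tree 4 they ran from 98 to 358, with 185 for all libraries. Whether scaffold regions moved more than other regions was not tested.

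The lowest p of a testable scaffold region was at 114263 to 114509 on scaffold_120, singled out after the values were seen. It was called in 2 of 5 libraries of tree 13, 4 of 5 of tree 14 and 0 of 4 of tree 4 (Fisher's exact p = 0.0849 for trees 13 and 14 against tree 4, adjusted p = 1).

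The number of scaffold_120 peaks moved with other features of a list. Relations over the 14 libraries were chosen after the values had been seen, 4 in all, with 100000 permutations each. Chloroplast peaks numbered 28, 33, 34, 34 and 25 in tree 13, 35, 37, 28, 32 and 28 in tree 14, and 25, 27, 32 and 30 in tree 4. Libraries with more chloroplast peaks had more scaffold_120 peaks (Pearson's r = 0.906, permutation p = 1e-05, the smallest the permutations can give, adjusted p = 2e-05; Spearman's rho = 0.888, permutation p = 6e-05, adjusted p = 0.00012). Without 14.2 and 4.2, the libraries farthest from the median, r was 0.861. After a linear fit of both on the number of chromosome peaks, r was 0.916 (permutation p = 1e-05, adjusted p = 2e-05) and rho 0.925 (permutation p = 1e-05, adjusted p = 4e-05), with r = 0.851 without 14.2 and 4.2.

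The relation with the chromosome peaks themselves was weaker, at r = 0.596 (permutation p = 0.0246, adjusted p = 0.0246) and rho = 0.555 (permutation p = 0.0425, adjusted p = 0.0425), with r = 0.512 without 13.5 and 14.3. The narrowest peak of a list, which ran from 90 bp in 14.4 to 159 bp in 13.5, was related inversely to the number of scaffold_120 peaks. Here r was −0.912 (permutation p = 2e-05, adjusted p = 2.67e-05) and rho −0.806 (permutation p = 0.0009, adjusted p = 0.0012), with r = −0.801 without 13.5 and 4.2. With peaks of at least 159 bp only, scaffold_120 had 22 to 46 peaks per library, against 22 to 67 without this limit. A tree holds 4 or 5 libraries, too few for an r of its own, so these relations were not given within trees. The part of the narrowest width or of the chloroplast peaks in the number of scaffold_120 peaks was not tested.

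**Figure D5:**
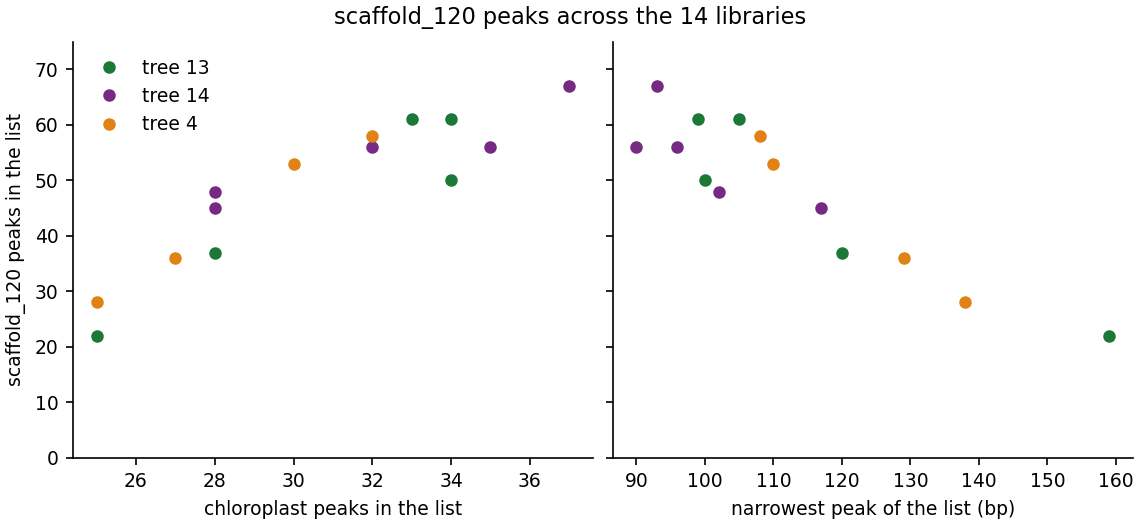
Number of scaffold_120 peaks (vertical axis) against the number of chloroplast peaks (left) and the narrowest peak width of the list in bp (right), with a point for each of the 14 libraries, coloured by tree. The horizontal axes do not start at 0. Peaks on scaffold_120 increase with chloroplast peaks (r = 0.906) and decrease with the narrowest width (r = −0.912).

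Pairs of libraries were also compared by the Jaccard index, the base pairs covered in both lists over those covered in either. Over the 91 pairs it was 0.564 ± 0.0656 on scaffold_120, 0.537 ± 0.105 on the other scaffolds and 0.512 ± 0.0534 on the chromosomes. On scaffold_120 the pairs within tree 13 averaged 0.550, those within tree 14 averaged 0.581 and those within tree 4 averaged 0.573, while pairs of tree 13 with tree 14 averaged 0.558 and pairs of these trees with tree 4 averaged 0.565. Pairs share libraries, so these values are given without a test.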

How the data were processed

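ATAC-seq peak lists of 15 leaf libraries were used, with 14 in the comparisons. Per the labels, the submitters' processing notes name Trimmomatic 0.36, Bowtie 1.1.1 and MACS2 2.1.2. ATAC-seq is absent from the study's methods, and neither the build nor a transposase correction of read ends is stated in the sources used here. The authors deposited a peak list for each library, with a −log10 p-value, a −log10 q-value and a score per peak. In at least 99.9766% of the peaks of a list, the deposited score equalled 10 times the −log10 q-value with its decimals dropped. Without counts, depth is unknown and counting error cannot be computed.

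The tree number of the title gave the group. Peaks of the 14 libraries that overlapped or touched were merged, and a region was called in a library where at least 1 bp of its peaks fell in it. The score percentile is the rank of a peak within its own list. Shares between trees were compared by exact permutation tests over libraries, scaffold and chromosome peaks by exact sign-flip tests within libraries, and calls of each region by Fisher's exact test over all sequences with Benjamini-Hochberg adjustment. Nothing states that a branch gave more than 1 library, so spread between branches cannot be told apart from spread between library preparations.

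Regions were named by rule. On scaffold_120 and on the other scaffolds these were the 5 regions called in the most libraries with the highest mean percentile, the 3 widest, the 2 strongest single-library regions, and any with an unadjusted Fisher p under 0.05, and on each smaller scaffold the region called most often. Members, rules and tests were chosen with earlier results of these data known. The density, the relations and the split at 40 and 180 kb were added after the values were seen. As alternatives, lists were limited to a −log10 q of at least 5 or 10, to their most significant 50%, to their 12801 most significant peaks, or to widths of 159 bp and more, and the others were a 50% overlap, windows of 500 bp, means in place of medians, log2 shares, a replicate block, the branches without 13.4 and 14.1, and each library left out. Scripts ran in Python 3.11.15 with scipy 1.17.1, pandas 2.3.3, numpy 2.4.6 and matplotlib 3.10.9. No reference sequence or annotation was used.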

Additional observations from a re-analysis of the deposited data

Results flagged for a closer look

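Of 42 groups examined, 14 measures in each of 3 trees, 4 had a library whose gap to its neighbour passed Dixon's 95% critical value. For independent groups of continuous, normally distributed values, chance alone passes it in about 1 of 20. The measures here draw on the same peaks and include small tied counts, so that rate need not hold for them. Branch 13.5 had 2 peaks on the scaffolds other than scaffold_120, where the next branch of tree 13 had 6. Branch 14.3 had a median peak width of 384 bp on these scaffolds, where the next branch of tree 14 had 279 bp. Branch 4.4 had 6 peaks on these scaffolds, where the others of tree 4 had 5 each, so that any differing count would have passed. Branch 4.2 had 0.112% of its list on scaffold_120, where the next branch of tree 4 had 0.173%.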

How the results depend on the processing

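Of the 180 recomputed differences between trees, 157 kept their direction and 23 turned round, and none passed the threshold. Of 128 recomputed differences from the chromosomes, 106 kept direction and call, 8 lost the call, 1 gained it and 13 turned round. Of these 13, 4 passed the threshold in the opposite direction: the percentile of scaffold_120 in the most significant 50% and with lists of equal length, and with equal lists also the width of scaffold_120 and the percentile of other scaffolds. The density difference kept both in all 20. Only called peaks can be seen, as the lists give no read counts, and other scaffolds have few peaks.

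With the most significant 50% of each list, trees 13 and 14 differed from tree 4 by −0.00286 points in the share of peaks on scaffold_120, 0.00433 on other scaffolds, −0.0193 in covered length on scaffold_120 and 0.00198 on other scaffolds. Against the chromosomes, the median width of scaffold_120 differed by −32.8 bp, its percentile by 14.2 and that of other scaffolds by −5.16, and other scaffolds by 0.413 libraries. Scaffold_120 had 19 regions, 4 in all 14 libraries and 6 in 1 library, and other scaffolds had 1 in all 14. Unadjusted Fisher calls over all sequences were 168 (tree 13 against 14) and 109 (trees 13 and 14 against tree 4).

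At a −log10 q of at least 5 the share on other scaffolds differed by 0.000464 from tree 4, the widths by −18.4 and 84.4 bp (scaffold_120, other scaffolds), the percentiles by 10.1 and −2.68, and other scaffolds by 0.674 libraries. Scaffold_120 had 24 regions, 5 in all 14 and 12 in 1, other scaffolds had 1 in all 14, and the Fisher calls were 102 and 106. At 10 or more, other scaffolds (11 libraries with any peak) differed by −0.0118 (peaks) and −0.0149 (length) between trees 13 and 14 and by 0.00139 from tree 4. Widths differed by −72.0 and 154 bp, percentiles by −0.481 and −14.1, and other scaffolds by 0.912 libraries. Scaffold_120 had 8 regions, 1 in all 14 and 0 in 1, other scaffolds had 2, 0 in all 14 and 1 in 1, and the Fisher calls were 17 and 47.

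With lists of equal length, tree 13 differed from tree 14 by 0.00625 (peaks) and 0.00781 (length) on scaffold_120, and trees 13 and 14 from tree 4 by 0.00703 and 0.00212 on other scaffolds. The width of scaffold_120 differed by −53.0 bp, the percentiles by 10.6 and −10.1, and other scaffolds by 0.658 libraries. Scaffold_120 had 23 regions, 6 in all 14 and 6 in 1, and other scaffolds had 1 in all 14 and 1 in 1. With peaks of at least 159 bp, other scaffolds differed from tree 4 by 0.00243, their percentile by −3.20, sharing by −0.0858 (scaffold_120) and 0.748 libraries. On scaffold_120 13 regions were in all 14 and 7 in 1, and tree 13 against 14 gave 169 Fisher calls.

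Mean widths gave 40.8 bp. A 50% overlap gave 306 Fisher calls against tree 4, 1 of them on scaffolds, and 8 and 1 regions in all 14 (scaffold_120, other scaffolds). Windows of 500 bp gave 10 single-library regions on scaffold_120. Without 13.4 and 14.1 the Fisher calls were 41 and 56.

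Leaving out single libraries, the share of peaks on scaffold_120 differed by −0.0220 to 0.0113 between trees 13 and 14, and its covered length by −0.0281 to 0.0107. Against tree 4 the covered length on scaffold_120 differed by −0.00467 to 0.0293 and the share on other scaffolds by −0.00272 to 0.000247. Fisher calls were 274 to 1092 and 98 to 358, with 0 to 2 and 0 to 1 on scaffolds.

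Same-numbered branches of trees 13 and 14 shared only a number (correlations −0.0916 to 0.120, with 2 of 10 libraries closest to their own number). The replicate block gave −0.00510 (exact permutation p = 0.875) and 0.00505 (p = 0.312) for shares of peaks, −0.00863 (p = 0.875) and 0.00451 (p = 0.375) for covered length, each on scaffold_120 and other scaffolds, and 0 Fisher calls. With 5 pairs the block cannot reach 0.05. The causes of these changes were not tested.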

Other observations

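The library titled 1.1, which entered no comparison, had 31 scaffold peaks in a list of 27009 (0.115%), of which 24 were on scaffold_120. All 31 overlapped scaffold regions of the 14 libraries, with 0 outside them. Its list held 23 chloroplast peaks.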
